A study of Mus musculus with 10 samples.

Results

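The 9 genes described here, Lyve1, Folr2, F13a1, Pf4, Mrc1, Cd163, Cbr2, Timd4 and Stab1, are transcripts known from the Lyve1-type macrophages that sit along vessels and in the connective tissue sheaths of many organs. They were taken by symbol from the deposited count table, 1 row per Ensembl gene, and make up 9 of its 40481 genes. The list was drawn up with results of the same contrast known, oxaliplatin against vehicle, so the values below describe these genes and are not a test of them. The libraries were made from dorsal root ganglia of C57BL/6 mice, which house the sensory neurons of trunk and limbs.

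The oxaliplatin group holds 5 libraries from mice labelled 10 mg/kg oxaliplatin, a platinum-based chemotherapy known for its toxicity to sensory nerves, and the vehicle group 5 libraries from mice given vehicle. The design text gives a treatment of 8 weeks. The sources used here state neither how often the dose was given nor the age of the mice. Both groups share the strain and the tissue, and an RNA integrity above 8 was required of every sample. The labels do not say in words that each library is a separate animal, so p-values measure the spread between these libraries. Library totals ran from 52963470 to 60984426 counts. The tissue label fits its markers in every library: the 8 sensory neuron markers summed to 15700 to 17800 CPM (counts scaled to library size) after oxaliplatin and to 18200 to 20400 CPM after vehicle. These ranges did not overlap. Tubb3 averaged 8170 CPM after oxaliplatin and 9410 CPM after vehicle, and Nefl 2950 and 4210 CPM. Avil (1640 and 1550 CPM) and Prph (789 and 740 CPM) leaned the other way. Of the 8 markers, 3 had a log2 fold change above 0 and 5 below, with a median of -0.04.

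Tissue macrophages are long-lived phagocytes that clear debris, and in many organs they fall into a perivascular kind with scavenger receptors and a kind rich in MHC class II molecules, which present antigen to T cells. The first kind carries Lyve1, a receptor for the matrix sugar hyaluronan. In sensory ganglia macrophages lie around the neurons and in the sheath, and they respond to nerve damage. These are bulk libraries, so fewer cells of a type and less RNA per cell cannot be told apart.

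Of the 8 genes with enough counts to be tested, all 8 had a log2 fold change above 0 after oxaliplatin, against 51% of the 18401 tested genes, and the median was 0.59, against 0.005 over all tested genes. In the whole-table fit (quasi-likelihood test of edgeR, adjusted by Benjamini-Hochberg, threshold 0.05) Folr2, F13a1 and Pf4 were higher, 3 of 8 tested members, where 1.27% of all tested genes were higher. On the higher side 5 members had an unadjusted p below 0.05, and 4 passed by DESeq2 and 5 by limma voom. No member was lower by edgeR, 0 had an unadjusted p below 0.05 on that side, and 0 were lower by DESeq2 or limma voom, where 0.772% of all tested genes were lower by edgeR. Folr2 and Pf4 had every oxaliplatin library above every vehicle library, as did 2.25% of all tested genes, and no member had the opposite, as did 1.77%. The count of 3 depended on single libraries: it was 1 without oxaliplatin replicate 1 or 5 or vehicle replicate 1, 0 without oxaliplatin replicate 4 or vehicle replicate 4, and 5 without vehicle replicate 5 or with limma voom. Without both oxaliplatin replicate 1 and vehicle replicate 5 it was 2. The genes counted also changed: the 1 call was Lyve1 without oxaliplatin replicate 1 (edgeR adjusted p = 0.0344). It was Folr2 without oxaliplatin replicate 5 (0.0385) and F13a1 without vehicle replicate 1 (0.0493). Since the members were chosen on this contrast, nothing is read from these shares. The summed level of the 9 genes was 43.9 to 65.5 CPM after oxaliplatin and 32.0 to 45.9 CPM after vehicle, with oxaliplatin replicate 2 below vehicle replicate 5.

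**Figure D1:**
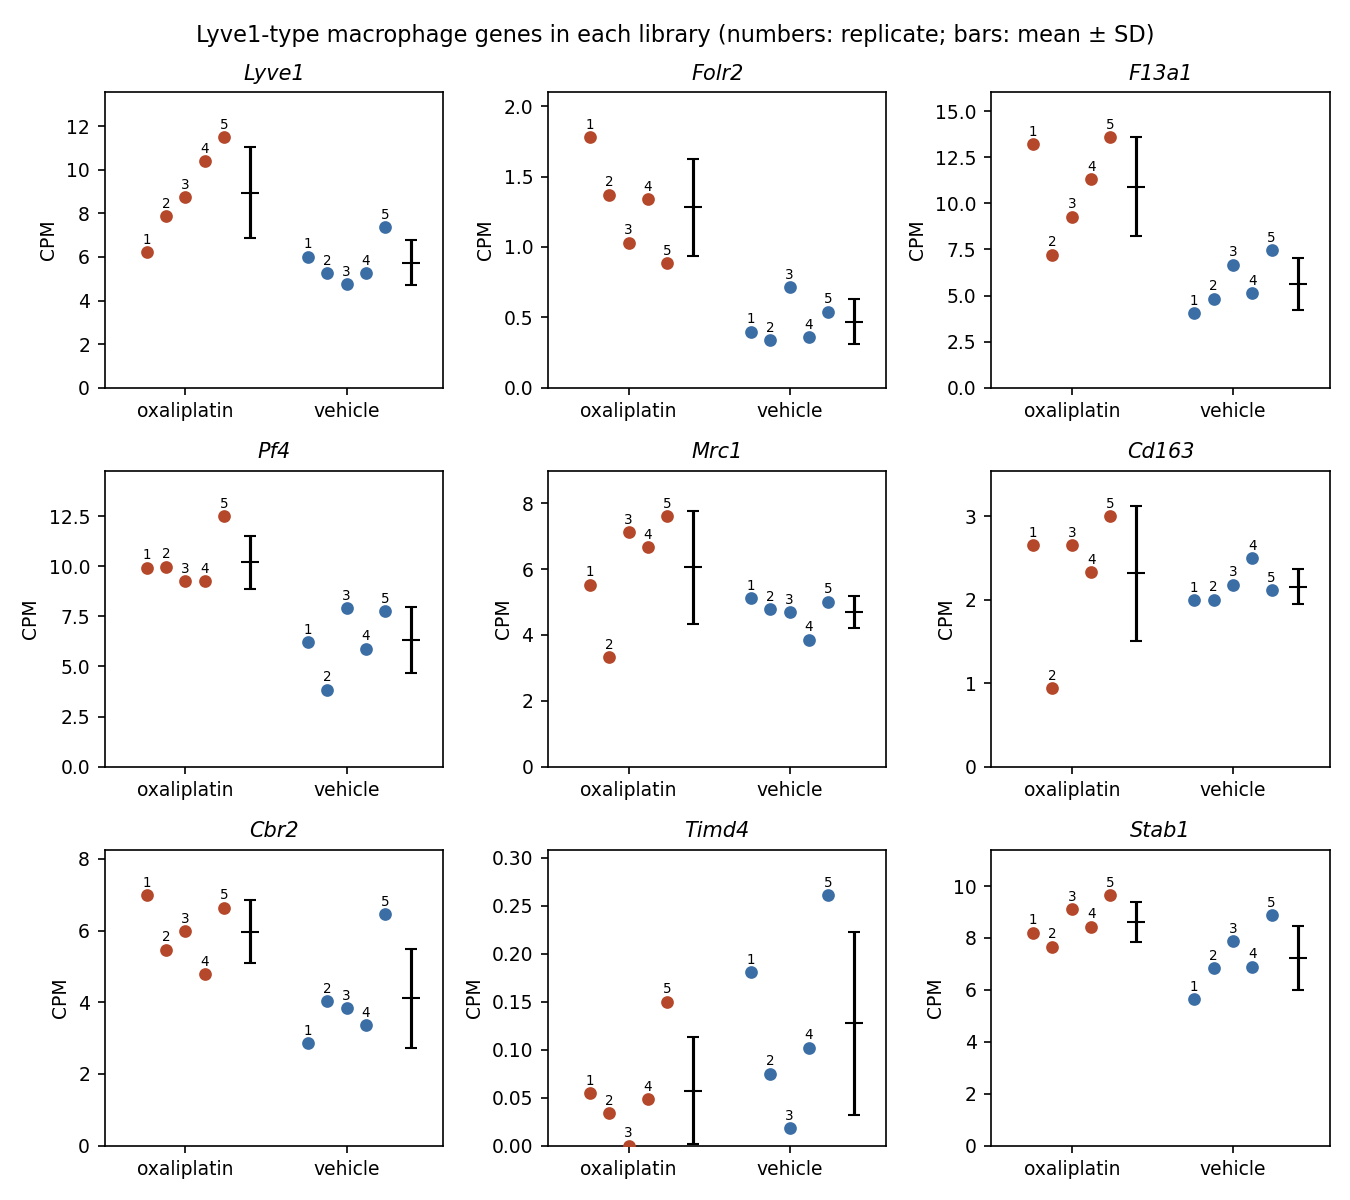
CPM of each of the 9 genes (y axis, from 0) in each library, oxaliplatin left and vehicle right; points are libraries numbered by replicate and bars are mean ± SD of 5. Folr2 and Pf4 have no overlap between the groups, and Mrc1 and Cd163 are lowest in oxaliplatin replicate 2, at 3.32 and 0.940 CPM.

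The upstream sequences of the 3 genes that passed the threshold are shown because they are the members whose transcripts differed most, and because PU.1, the factor that macrophages need for their identity, is known to bind purine-rich sites near the starts of macrophage genes. Windows of 250 bases before to 50 bases after a transcription start were taken from RefSeq (GRCm38.p6), in which 8 of the 9 members have 10 windows. They were searched on both strands for GAGGAAGT, the PU.1 core, for TGCTGAC, a core of sites of the macrophage factor MAF, and for TTC and GAA with 4 bases of any kind between them, a STAT6 site, 3 motifs chosen with the sequences in view. Capitals mark GAGGAAGT or its reverse complement.
Pf4, chr5:90772185-90772484, plus strand: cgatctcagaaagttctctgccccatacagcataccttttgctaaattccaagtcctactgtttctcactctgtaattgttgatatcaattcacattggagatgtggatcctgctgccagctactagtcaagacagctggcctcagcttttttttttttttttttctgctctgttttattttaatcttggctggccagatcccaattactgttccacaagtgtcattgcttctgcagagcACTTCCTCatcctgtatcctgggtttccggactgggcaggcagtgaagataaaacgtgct
F13a1, chr13:37049164-37049463, minus strand: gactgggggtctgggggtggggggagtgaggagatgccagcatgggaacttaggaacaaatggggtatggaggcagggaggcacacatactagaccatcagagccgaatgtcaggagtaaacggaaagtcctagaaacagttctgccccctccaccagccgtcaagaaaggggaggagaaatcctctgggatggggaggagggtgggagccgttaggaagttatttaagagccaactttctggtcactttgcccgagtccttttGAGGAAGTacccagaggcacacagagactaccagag
Folr2, chr7:101845282-101845581, minus strand: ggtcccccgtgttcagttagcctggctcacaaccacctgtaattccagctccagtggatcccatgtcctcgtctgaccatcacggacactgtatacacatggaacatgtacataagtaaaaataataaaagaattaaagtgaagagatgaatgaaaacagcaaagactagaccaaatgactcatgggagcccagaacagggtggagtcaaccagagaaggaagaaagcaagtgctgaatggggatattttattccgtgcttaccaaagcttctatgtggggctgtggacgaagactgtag
The PU.1 core stood in 2 of the 10 windows, in that of Pf4 with its first base 10 before the start and in that of F13a1 with its first base 14 after the start, and in 3.2% of all 32851 windows of the table. The other windows of F13a1 and Folr2, which belong to other starts, did not hold these letters. TGCTGAC stood in 2 of the 10 windows, those of Timd4 and Cbr2, and in 4.67% of all windows. The STAT6 letters stood in 1 window, that of Cbr2, and in 6.95% of all windows. A match is a string of letters and not a measured site. Spi1, the gene of PU.1, had 0.205 to 0.598 CPM after oxaliplatin and 0.272 to 1.82 CPM after vehicle. Its log2 fold change was -1.35 ± 0.48 (edgeR adjusted p = 0.165). Binding of PU.1 was not tested.

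Among the receptors, Lyve1 itself (ENSMUSG00000030787) had 6.22, 7.86, 8.75, 10.4 and 11.5 CPM in oxaliplatin replicates 1 to 5, against 6.01, 5.24, 4.76, 5.27 and 7.38 CPM in vehicle replicates 1 to 5. Oxaliplatin replicates 2 to 5 were all above the highest vehicle library, and replicate 1 lay between vehicle replicates 1 and 5. The mean was 8.95 ± 2.08 CPM after oxaliplatin and 5.73 ± 1.02 CPM after vehicle (SD, n = 5 each), a log2 fold change of 0.64 ± 0.16 (SE). Over all genes that fell just short of the threshold (edgeR adjusted p = 0.0526). The side of the threshold depended on the libraries and tool: the edgeR adjusted p was 0.0344 without oxaliplatin replicate 1, 0.0472 without oxaliplatin replicate 2 and 0.0309 without vehicle replicate 5, and the DESeq2 adjusted p was 0.0083. Those 3 were the only fits of the 10 without 1 library in which Lyve1 passed. Over all 18 alternatives the adjusted p ran from 0.0083 to 0.174, the highest being that of edgeR without oxaliplatin replicate 5.

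Folr2 (ENSMUSG00000032725), the folate receptor beta of macrophages, had the largest fold change of the 8 tested genes and the lowest counts among them, 53 to 98 in the oxaliplatin libraries and 18 to 40 in the vehicle libraries. It stood at 1.78, 1.37, 1.03, 1.34 and 0.885 CPM in oxaliplatin replicates 1 to 5, against 0.398, 0.337, 0.715, 0.357 and 0.541 CPM in vehicle replicates 1 to 5. Every oxaliplatin library lay above every vehicle library. Within the oxaliplatin group its order was not that of Lyve1: replicate 1, the lowest for Lyve1, was the highest for Folr2, and replicate 5, the highest for Lyve1, was the lowest. The mean was 1.28 ± 0.347 CPM after oxaliplatin and 0.470 ± 0.159 CPM after vehicle (SD, n = 5 each), a 2.72-fold difference (log2 fold change 1.44 ± 0.29, edgeR adjusted p = 0.0196). The call was lost without oxaliplatin replicate 1 (edgeR adjusted p = 0.054) or 4 (0.0584) and without vehicle replicate 1 (0.0503) or 4 (0.062).

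Mrc1 (ENSMUSG00000026712), the mannose receptor, which takes up glycoproteins and collagen fragments, had 5.53, 3.32, 7.13, 6.66 and 7.61 CPM in oxaliplatin replicates 1 to 5, against 5.12, 4.79, 4.70, 3.86 and 5.01 CPM in vehicle replicates 1 to 5. Replicate 2 was the only oxaliplatin library within or below the vehicle range, and it was below it. Its log2 fold change, 0.37 ± 0.19 (edgeR adjusted p = 0.346), was 0.52 without oxaliplatin replicate 2 (edgeR adjusted p = 0.0584). Cd163 (ENSMUSG00000008845), the receptor that clears haemoglobin bound to haptoglobin, had 2.65, 0.940, 2.65, 2.33 and 3.0 CPM in oxaliplatin replicates 1 to 5, against 1.99, 2.0, 2.18, 2.5 and 2.11 CPM in vehicle replicates 1 to 5. Here too replicate 2 lay below every other library, and the other 4 oxaliplatin libraries lay at 2.33 CPM or more. Its log2 fold change was 0.10 ± 0.24 (edgeR adjusted p = 0.891), 0.30 without oxaliplatin replicate 2 (0.377) and -0.01 without oxaliplatin replicate 5 (0.994).

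Stab1 (ENSMUSG00000042286), the scavenger receptor stabilin-1, which endothelial cells of some vessels also make, was among the steadier members. It ran from 7.67 to 9.65 CPM after oxaliplatin (median 8.43) and from 5.64 to 8.89 CPM after vehicle, and the groups overlapped. Its log2 fold change of 0.25 ± 0.13 did not pass (edgeR adjusted p = 0.336). Timd4 (ENSMUSG00000055546), the phosphatidylserine receptor with which resident macrophages bind dying cells, was close to absent from the counts. It had 3, 2, 0, 3 and 9 counts in oxaliplatin replicates 1 to 5, against 10, 4, 1, 6 and 14 counts in vehicle replicates 1 to 5. It did not pass the filter on low counts. In the fit without that filter it was at -1.11 ± 0.92 (edgeR adjusted p = 0.624), the one member with a fold change below 0.

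Among the secreted and enzymatic members, F13a1 (ENSMUSG00000039109), the A chain of clotting factor XIII, which crosslinks fibrin and matrix proteins, had 13.2, 7.21, 9.28, 11.3 and 13.6 CPM in oxaliplatin replicates 1 to 5, against 4.05, 4.83, 6.67, 5.12 and 7.46 CPM in vehicle replicates 1 to 5. Vehicle replicate 5 lay above oxaliplatin replicate 2, and no other pair of libraries overlapped. The mean was 10.9 ± 2.68 CPM after oxaliplatin and 5.62 ± 1.40 CPM after vehicle (SD, n = 5 each), a 1.94-fold difference (log2 fold change 0.96 ± 0.19, edgeR adjusted p = 0.0211). The call was lost without oxaliplatin replicate 1 (edgeR adjusted p = 0.0519), 4 (0.0653) or 5 (0.0712) or vehicle replicate 4 (0.0751).

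Pf4 (ENSMUSG00000029373), the chemokine platelet factor 4, which platelets and tissue macrophages both make, had 9.93, 9.98, 9.25, 9.27 and 12.5 CPM in oxaliplatin replicates 1 to 5, against 6.20, 3.84, 7.92, 5.88 and 7.77 CPM in vehicle replicates 1 to 5. The groups did not overlap, and 4 of the oxaliplatin libraries lay within 9.25 to 9.98 CPM. The mean was 10.2 ± 1.35 CPM after oxaliplatin and 6.32 ± 1.66 CPM after vehicle (SD, n = 5 each), a 1.61-fold difference (log2 fold change 0.69 ± 0.17, edgeR adjusted p = 0.0436). The call was lost in 7 of the 10 fits without 1 library: without any one of the oxaliplatin replicates 1 to 5 (edgeR adjusted p = 0.085, 0.0535, 0.0567, 0.0836 and 0.138) and without vehicle replicate 1 (0.0933) or 4 (0.127). Cbr2 (ENSMUSG00000025150), a carbonyl reductase that lung and fat also make, ran from 4.78 to 6.99 CPM after oxaliplatin (median 5.98) and from 2.86 to 6.45 CPM after vehicle. Vehicle replicate 5 was the one vehicle library within the oxaliplatin range. Its log2 fold change, 0.54 ± 0.19 (edgeR adjusted p = 0.164), was 0.76 without vehicle replicate 5 (0.0255).

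Divided by exon length (GENCODE M21, whose gene models may differ from those the authors counted on), levels in CPM per kilobase were highest for Pf4, at 14.1 ± 1.87 after oxaliplatin and 8.77 ± 2.30 after vehicle (SD, n = 5 each). Cbr2 followed at 4.5 ± 0.668 after oxaliplatin and 3.10 ± 1.04 after vehicle, Lyve1 at 3.07 ± 0.712 after oxaliplatin and 1.96 ± 0.351 after vehicle, and F13a1 at 1.62 ± 0.397 after oxaliplatin and 0.835 ± 0.207 after vehicle. The ranges of mean ± SD of Cbr2 and Lyve1 overlapped after vehicle and not after oxaliplatin. After oxaliplatin the ranges of mean ± SD of Mrc1 (0.950 ± 0.269), Stab1 (0.837 ± 0.0753) and Folr2 (0.828 ± 0.224) overlapped, with Cd163 below them at 0.424 ± 0.147. After vehicle those of F13a1, Mrc1 (0.737 ± 0.078) and Stab1 (0.702 ± 0.119) overlapped, and so did those of Cd163 (0.395 ± 0.038) and Folr2 (0.304 ± 0.103). Timd4 was lowest in both groups, at 0.0264 ± 0.0258 after oxaliplatin and 0.0586 ± 0.0437 after vehicle.

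The members did not vary as 1 block. After each group's mean was taken off, Pearson's r of log2 CPM over the 10 libraries ran from -0.45 to 0.82 over the 28 pairs of tested members, with a median of 0.34 and 25 pairs above 0. The pair of highest r was Mrc1 and Cd163 (0.82), followed by Stab1 with F13a1 and with Cbr2 (0.78 each). The pair of lowest r was Lyve1 and Folr2 (-0.45), the genes whose highest and lowest oxaliplatin libraries were exchanged. Each r rests on 10 libraries and shares their depth and composition, and it is given as a description. With the mean of 21 general macrophage genes, taken in the same way, r was 0.83 for Cbr2, 0.79 for Stab1, 0.34 for Lyve1 and between -0.01 and 0.48 for the other 5.

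**Figure D2:**
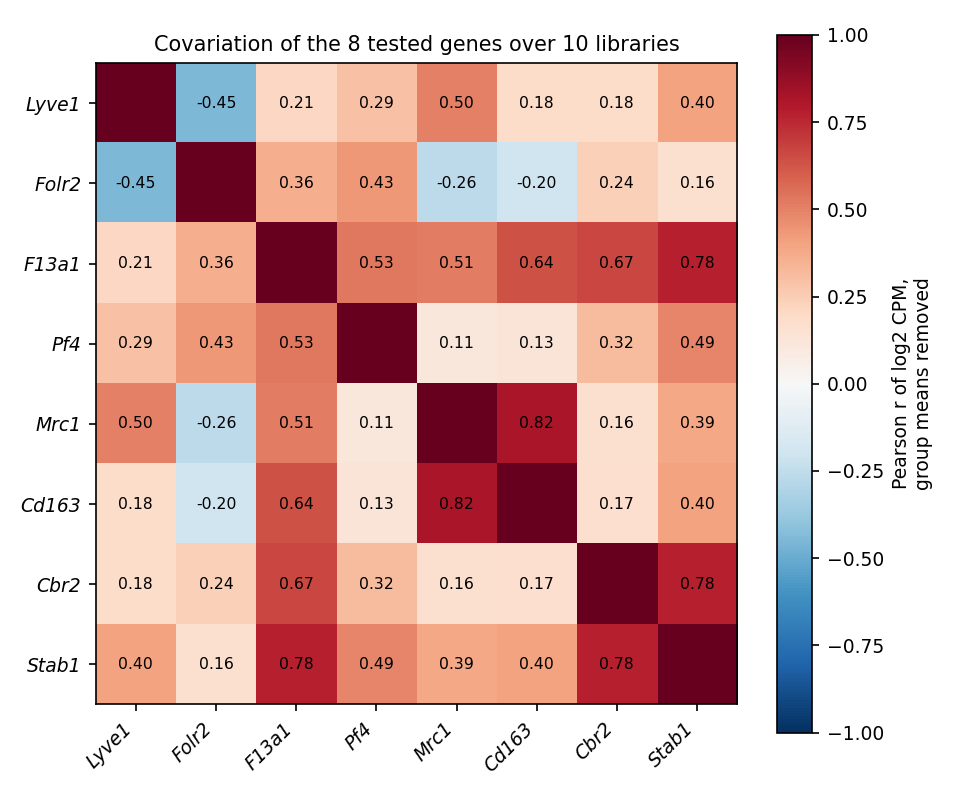
Pearson's r of log2 CPM between the 8 tested genes over 10 libraries, with each group's mean taken off (colour from -1 to 1). Mrc1 and Cd163 vary most alike (0.82), while Lyve1 and Folr2 have the lowest value (-0.45).

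The 6 genes outside the lists whose within-group variation was most like the mean of the 8 tested members, of 12164 genes ranked over the 10 libraries, were Eno1 (r = 0.97), the glycolytic enzyme enolase, Tarbp2 (0.957), a partner of Dicer, Mt2 (0.948) and Mt1 (0.943), the metallothioneins, Pglyrp1 (0.947), a protein that binds bacterial peptidoglycan, and Rnls (0.942). None of these passed the threshold, with Mt2 at a log2 fold change of 1.65 ± 0.42 (edgeR adjusted p = 0.0992) and Pglyrp1 at 1.01 ± 0.32 (0.13). The r values share library depth and composition.

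Other genes of macrophages lay on both sides of 0. Of 21 genes of macrophages of any kind, all tested, 1 was higher and 1 lower, 14 had a fold change below 0, and the median log2 fold change was -0.41. By unadjusted p below 0.05 the counts were 2 higher and 7 lower, by DESeq2 1 and 3, and by limma voom 1 and 0. Csf1r, the receptor for the growth factor on which macrophages depend, had 5.91 to 9.63 CPM after oxaliplatin and 8.84 to 10.7 CPM after vehicle, at -0.41 ± 0.13 (edgeR adjusted p = 0.124, and 0.0489 by DESeq2). Ctss, a lysosomal protease, fell, with a log2 fold change of -0.73 ± 0.17 (edgeR adjusted p = 0.0394, a call kept only in the fits without vehicle replicate 1 or 4 among the 10 fits that left out 1 library). Aif1, which codes for the marker IBA1, had 1.03 to 2.03 CPM after oxaliplatin and 2.33 to 7.92 CPM after vehicle, with no overlap (-1.40 ± 0.34, edgeR adjusted p = 0.0537, and 0.000648 by DESeq2). Mertk, a receptor for engulfing dying cells, was the gene of this list that rose. It had 18.1 to 20.7 CPM after oxaliplatin and 8.19 to 12.4 CPM after vehicle, with no overlap (log2 fold change 0.88 ± 0.12, edgeR adjusted p = 0.00215), and passed in all 10 fits without 1 library. Glial cells are known to express Mertk too.

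Genes of the MHC class II and Cx3cr1 list were mostly lower after oxaliplatin. Of 8 such genes 5 were lower and 0 higher by edgeR, 0 had an unadjusted p below 0.05 on the higher side, and 0 were higher by DESeq2 or limma voom; 5 were lower also by unadjusted p, by DESeq2 and by limma voom, and the median log2 fold change was -1.77. Cd74, the chaperone of class II molecules, was at -2.10 ± 0.24 (edgeR adjusted p = 0.00633), and the class II chains H2-Aa, H2-Ab1 and H2-Eb1 at -2.18 ± 0.27, -2.09 ± 0.17 and -1.81 ± 0.17 (0.00849, 0.000130 and 0.000216). Cx3cr1, the fractalkine receptor, was at -1.73 ± 0.32 (edgeR adjusted p = 0.0145), and lost its call without oxaliplatin replicate 4 or 5 (up to 0.0581). Ciita, H2-DMa and H2-DMb1 did not pass, at -0.44 ± 0.33, -0.18 ± 0.14 and -0.18 ± 0.25 (edgeR adjusted p = 0.564, 0.557 and 0.805). Which cells held the class II transcripts was not tested. Both kinds of list share the same libraries, so each is given by its own values.

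**Figure D3:**
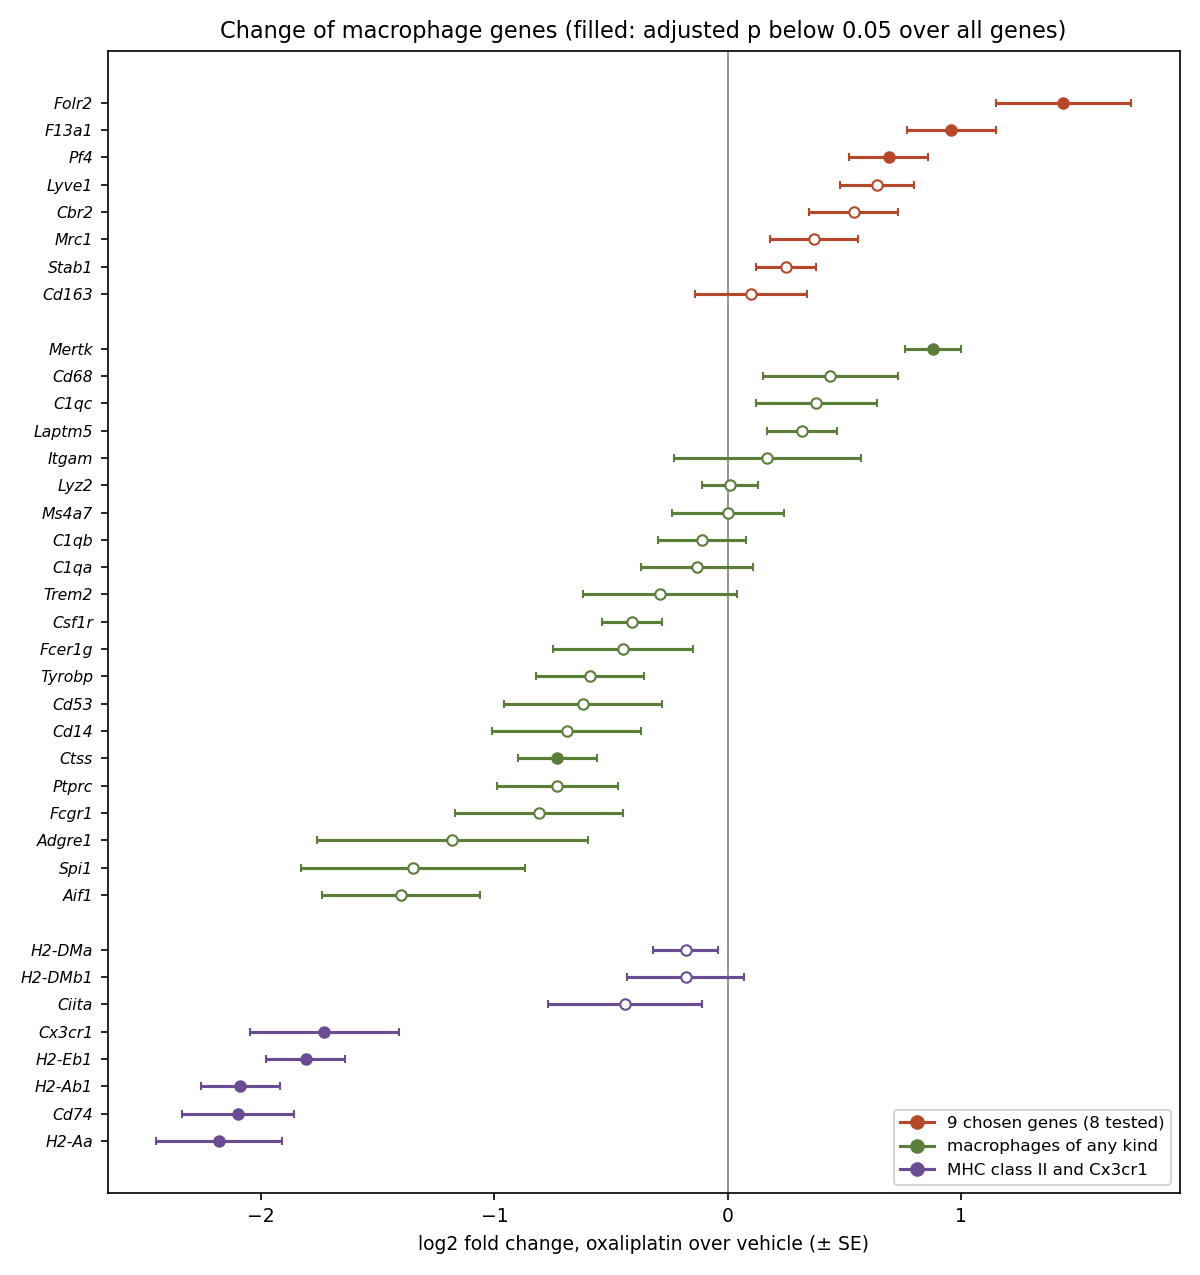
Log2 fold change, oxaliplatin over vehicle, with SE (x axis) of the 8 tested members, of 21 general macrophage genes and of 8 genes of the MHC class II and Cx3cr1 list; filled points passed an adjusted p of 0.05 over all genes. All 8 members lie above 0 and all 8 class II and Cx3cr1 genes below it, and the general macrophage genes lie on both sides.

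Within each library, the summed level of the 9 genes was set against these lists. The ratio to the general macrophage list was 0.353, 0.285, 0.322, 0.388 and 0.345 in oxaliplatin replicates 1 to 5, against 0.271, 0.162, 0.224, 0.241 and 0.213 in vehicle replicates 1 to 5. Every oxaliplatin library had a higher ratio than every vehicle library, while the summed general list itself overlapped, at 141 to 190 CPM after oxaliplatin and 120 to 215 CPM after vehicle. The largest parts of that sum were Lyz2 (means of 46.9 CPM after oxaliplatin and 46.4 CPM after vehicle) and C1qb (22.3 and 24.1 CPM). Mertk, which rose, is also in it (19.1 and 10.4 CPM), while 14 of the 21 genes had a fold change below 0. The ratio to the class II and Cx3cr1 list was 0.314 to 0.706 after oxaliplatin and 0.0943 to 0.135 after vehicle, again without overlap. That summed list itself did not overlap, at 77.2 to 140 CPM after oxaliplatin and 257 to 410 CPM after vehicle. The ratio of Lyve1 to Csf1r was 0.942 to 1.76 after oxaliplatin and 0.471 to 0.692 after vehicle, and that of Folr2 to Csf1r 0.0919 to 0.269 after oxaliplatin and 0.0326 to 0.0708 after vehicle. For Mrc1 to Csf1r the groups overlapped, at 0.489 to 1.13 after oxaliplatin and 0.437 to 0.524 after vehicle. For Cd163 to Csf1r they also overlapped, at 0.139 to 0.401 after oxaliplatin and 0.194 to 0.283 after vehicle. These ratios use the counts by which the members were chosen, and the other lists were also chosen with earlier results known, so the ratios carry no test.

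**Figure D4:**
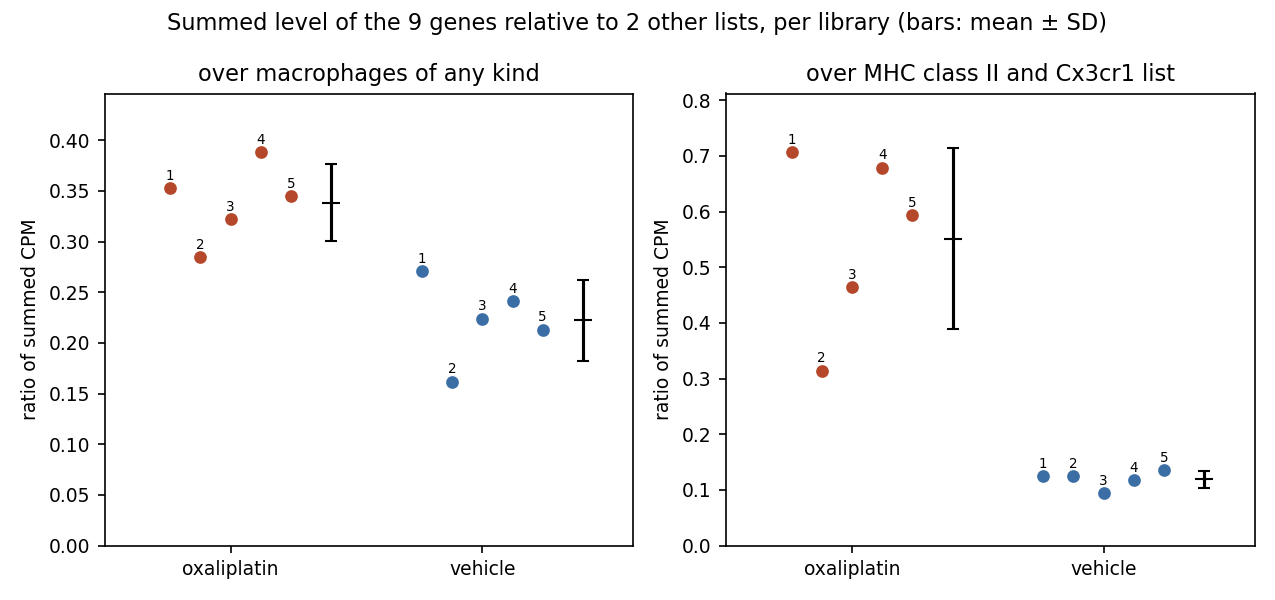
Ratio of the summed CPM of the 9 genes to the summed CPM of the general macrophage list (left panel) and of the MHC class II and Cx3cr1 list (right panel) in each library, oxaliplatin left of vehicle; numbers are replicates and bars are mean ± SD of 5. In both panels each oxaliplatin library lies above each vehicle library.

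Of 20 further genes known from Lyve1-type macrophages, 16 were tested, 1 was higher, 11 had a fold change above 0, and the median log2 fold change was 0.26. On the higher side 4 had an unadjusted p below 0.05, and 1 passed by DESeq2 and 3 by limma voom. None was lower by edgeR, 1 had an unadjusted p below 0.05 on that side, and 1 was lower by DESeq2 and 0 by limma voom. Gas6, a bridge between dying cells and receptors such as Mertk, rose 1.30-fold, with 47.9 to 52.0 CPM after oxaliplatin and 36.4 to 44.2 CPM after vehicle (log2 fold change 0.38 ± 0.07, edgeR adjusted p = 0.0138). It passed in all 10 fits without 1 library, and not without both oxaliplatin replicate 1 and vehicle replicate 5 (0.0523). Its level was above that of every member, of which F13a1 had the highest mean after oxaliplatin, 10.9 CPM. Which cells held the Gas6 transcripts was not tested. Clec10a, a lectin, had 2.89, 0.291, 1.35, 3.13 and 4.12 CPM in oxaliplatin replicates 1 to 5, against 0.476 to 1.14 CPM after vehicle. Oxaliplatin replicate 2 was the lowest of all 10 libraries, as for Mrc1 and Cd163. Its log2 fold change, 1.59 ± 0.57 (edgeR adjusted p = 0.199), was 1.87 without that replicate (0.00761). Cd209f, another lectin, was at 1.93 ± 0.66 (edgeR adjusted p = 0.150) on 0 to 0.684 CPM. Mgl2, the relative of Clec10a, was at -0.76 ± 0.25 (0.149). Clec10a, Cd209f and Mgl2 were named after their values were seen.

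Of 18 ligands, partners and relatives of the members, 14 were tested, 0 were higher and 1 was lower, at a median of -0.04. On the higher side 1 had an unadjusted p below 0.05, and 0 passed by DESeq2 or limma voom; on the lower side 2 had one, and 1 passed by each tool. Hmox1, the enzyme that breaks down the haem that Cd163 brings in, fell, with a log2 fold change of -0.31 ± 0.08 (edgeR adjusted p = 0.0462); it lost that call in 9 of the 10 fits without 1 library, all but that without oxaliplatin replicate 2, with an adjusted p of up to 0.147. Cd44, another hyaluronan receptor, was at -0.05 ± 0.06 (edgeR adjusted p = 0.770) and Slc19a1, a carrier of folate, at -0.10 ± 0.07 (0.493). Hp, the haptoglobin that Cd163 recognises when it holds haemoglobin, stood at 74.7 CPM in oxaliplatin replicate 1, at 2.32 to 7.15 CPM in the other oxaliplatin libraries and at 0.724 to 4.23 CPM after vehicle. Csf1, a ligand of Csf1r, was at -0.41 ± 0.31 (edgeR adjusted p = 0.576). It stood at 33.8 CPM in vehicle replicate 5 and at 9.1 to 16.2 CPM in the other vehicle libraries. Without vehicle replicate 5 its log2 fold change was -0.05 (edgeR adjusted p = 0.93).

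Several members are also known from other cells, whose markers were read in the same libraries. Lymphatic endothelium carries Lyve1 as well. Of its 6 markers, 5 were tested, 1 was higher and 0 lower (2 and 0 with an unadjusted p below 0.05, 1 and 0 by DESeq2 and by limma voom), and the median log2 fold change was 0.75. Mmrn1, an extracellular protein counted here as a lymphatic marker, had 0.701 to 1.45 CPM after oxaliplatin and 0.119 to 0.599 CPM after vehicle, without overlap (1.56 ± 0.36, edgeR adjusted p = 0.0343). Of the 10 fits without 1 library, 8 lost the call, all but those without oxaliplatin replicate 2 or vehicle replicate 2, with an edgeR adjusted p of up to 0.0927. Whether lymphatic vessels or other cells held the Mmrn1 transcripts was not tested. Flt4, the receptor for lymphatic growth factors, had 1.01 to 2.47 CPM after oxaliplatin and 0.941 to 1.56 CPM after vehicle (0.75 ± 0.25, edgeR adjusted p = 0.135, and 0.0267 without oxaliplatin replicate 2). Prox1, the factor that defines lymphatic identity, had 0.0363 to 0.646 CPM after oxaliplatin and 0.0715 to 0.253 CPM after vehicle (0.92 ± 0.59, edgeR adjusted p = 0.479). The chemokine Ccl21a had 1 count in 1 library of each group and 0 in the others. The summed list, most of which is Reln and Pdpn, genes that ganglia express outside lymphatics, was 40.8 to 66.2 CPM after oxaliplatin and 48.6 to 58.8 CPM after vehicle. The part of lymphatic cells in the Lyve1 values was not tested.

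Of 8 blood endothelial markers 2 were higher and 0 lower (3 and 0 with an unadjusted p below 0.05, 2 and 0 by DESeq2 and by limma voom), at a median of 0.17. Pecam1, an adhesion protein between endothelial cells, had 15.4 to 30.3 CPM after oxaliplatin and 8.19 to 12.8 CPM after vehicle (0.98 ± 0.18, edgeR adjusted p = 0.0164, and 0.0504 without oxaliplatin replicate 4). Cdh5, their cadherin, was at 0.69 ± 0.17 (edgeR adjusted p = 0.048, and above the threshold in 7 of the 10 fits without 1 library: those without oxaliplatin replicate 1, 3, 4 or 5, or without vehicle replicate 1, 3 or 4, up to 0.147). The summed list was 85.4 to 94.6 CPM after oxaliplatin and 61.3 to 88.8 CPM after vehicle. Kdr, Tek, Flt1, Cldn5, Emcn and Tie1 did not pass, at 0.20 ± 0.19, 0.01 ± 0.16, 0.03 ± 0.14, 0.24 ± 0.11, -0.04 ± 0.13 and 0.14 ± 0.13. The ratio of Lyve1 to Pecam1 overlapped between the groups, at 0.206 to 0.585 after oxaliplatin and 0.423 to 0.733 after vehicle. Pecam1 had the largest fold change of the 8 markers, and ratios of Lyve1 to the others were not taken. The part of endothelial cells in the Lyve1 and Stab1 values was not tested.

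Platelets make Pf4 and F13a1. Of 9 platelet markers 6 were tested, with 0 higher and 0 lower by edgeR (0 and 1 with an unadjusted p below 0.05, 0 and 1 by DESeq2, 0 and 0 by limma voom) and a median of -0.13. Ppbp, the chemokine stored with Pf4 in platelets, had 0.342 to 0.734 CPM after oxaliplatin and 0 to 1.19 CPM after vehicle, and the integrin chain Itga2b was at 0.10 ± 0.14 (edgeR adjusted p = 0.797), with Itgb3 at -0.67 ± 0.22 (0.155). The summed platelet list, most of which is Itga2b and Itgb3, was 13.4 to 18.2 CPM after oxaliplatin and 15.7 to 24.1 CPM after vehicle. The part of platelets in the Pf4 and F13a1 values was not tested. Red cell genes, a sign of blood left in the tissue, had 0 of 5 higher and 0 lower (0 on either side with an unadjusted p below 0.05, by DESeq2 or by limma voom), with a median of -0.65, and summed to 9.54 to 693 CPM after oxaliplatin and 137 to 439 CPM after vehicle; Hbb-bs was at -0.82 ± 1.03 and Hba-a1 at -0.65 ± 0.98. Monocytes of the mouse express F13a1 too, and 0 of the 4 tested monocyte markers were higher or lower by edgeR (0 and 1 with an unadjusted p below 0.05, 0 on either side by DESeq2 or limma voom), at a median of -0.10, with Ccr2 at -0.54 ± 0.25 and Ly6c2 at 0.13 ± 0.35. The monocyte list summed to 4.32 to 7.22 CPM after oxaliplatin and 3.76 to 8.65 CPM after vehicle.

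Fat and connective tissue hold many macrophages of this kind. Fat cell markers were high in oxaliplatin replicate 1, where the 8 genes summed to 1160 CPM, against 27.8 to 78.1 CPM in the other oxaliplatin libraries and 27.2 to 78.3 CPM after vehicle. None of the 6 tested was higher or lower by edgeR (2 and 0 with an unadjusted p below 0.05, 0 on either side by DESeq2 or limma voom), at a median of 2.44; Cfd, an adipocyte protease, was at 3.29 ± 1.26 (edgeR adjusted p = 0.247), and Car3 at 1.69 ± 1.13 (0.521), or -0.78 without that library. Cyp2f2, the club cell gene of highest count, also stood at 12.8 CPM in that library and at 0.718 to 2.45 CPM in the other oxaliplatin libraries, against 0.181 to 1.80 CPM after vehicle, while Scgb1a1, which defines club cells, was at -0.14 ± 0.26. The 4 club cell genes, of which 2 were tested, summed to 2.12 to 13.6 CPM after oxaliplatin and 1.12 to 2.81 CPM after vehicle, with 0 higher and 0 lower (0 with an unadjusted p below 0.05, by DESeq2 or by limma voom) and a median of 0.89. That same library had the highest Folr2 and Cbr2 of all 10 and the lowest Lyve1 of its group. Without it the log2 fold change was 1.30 for Folr2, 0.88 for F13a1, 0.70 for Pf4, 0.75 for Lyve1 and 0.48 for Cbr2. In that fit Folr2, F13a1 and Pf4 lost their calls (edgeR adjusted p = 0.054, 0.0519 and 0.085) and Lyve1 passed (0.0344). The part of fat tissue in the members' values was not tested.

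Of 10 fibroblast markers 1 was higher and 0 lower by edgeR, against 5 and 0 with an unadjusted p below 0.05, 5 and 0 by DESeq2 and 3 and 0 by limma voom, at a median of 0.42. Pdgfra, a growth factor receptor of fibroblasts, had 7.25 to 10.3 CPM after oxaliplatin and 4.97 to 7.58 CPM after vehicle (0.62 ± 0.14, edgeR adjusted p = 0.0266; the call was lost in 7 of the 10 fits without 1 library, those without oxaliplatin replicate 1, 3, 4 or 5, or without vehicle replicate 1, 3 or 4, up to 0.0858). Dcn, the matrix proteoglycan decorin, was at 0.47 ± 0.12 (edgeR adjusted p = 0.071, and 0.00326 by DESeq2). Dpt, the matrix protein dermatopontin, averaged 4.02 CPM after oxaliplatin and 1.95 CPM after vehicle, without overlap (1.05 ± 0.26, edgeR adjusted p = 0.0554), and Pi16 and Clec3b were at 1.12 ± 0.37 (0.174) and 1.12 ± 0.29 (0.0593). Dpt passed without vehicle replicate 2 (0.0433) or 5 (0.0388), and Clec3b without oxaliplatin replicate 1 (0.0252). Of the 10 markers, 4 had a fold change below 0, and none of these passed. Col1a1, Col1a2 and Col3a1 were at -0.16 ± 0.36, -0.10 ± 0.20 and -0.05 ± 0.30, and Lum at -0.42 ± 0.25. The summed list was 958 to 1200 CPM after oxaliplatin and 798 to 1030 CPM after vehicle. The part of connective tissue in the members' values was not tested. Among the genes of the ganglion's own cells, Nefl, a neurofilament of large neurons, was the 1 of 8 neuron markers that fell by edgeR (-0.51 ± 0.07, adjusted p = 0.00215), with 0 higher; by unadjusted p below 0.05 the counts were 0 higher and 2 lower, and by DESeq2 and by limma voom 0 and 1. Of 8 glial markers Glul rose (0.38 ± 0.08, 0.0223) and Fabp7 fell (-0.98 ± 0.18, 0.0298), at a median of -0.03 (2 higher and 3 lower with an unadjusted p below 0.05, 1 and 3 by DESeq2, 1 and 2 by limma voom); Glul lost its call without oxaliplatin replicate 4 or 5, or without vehicle replicate 1 or 4 (up to 0.0733), and Fabp7 without oxaliplatin replicate 1, 3 or 4, or without vehicle replicate 1, 3, 4 or 5 (up to 0.0779). The glial list summed to 5680 to 7520 CPM after oxaliplatin and 5320 to 7360 CPM after vehicle.

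**Figure D5:**
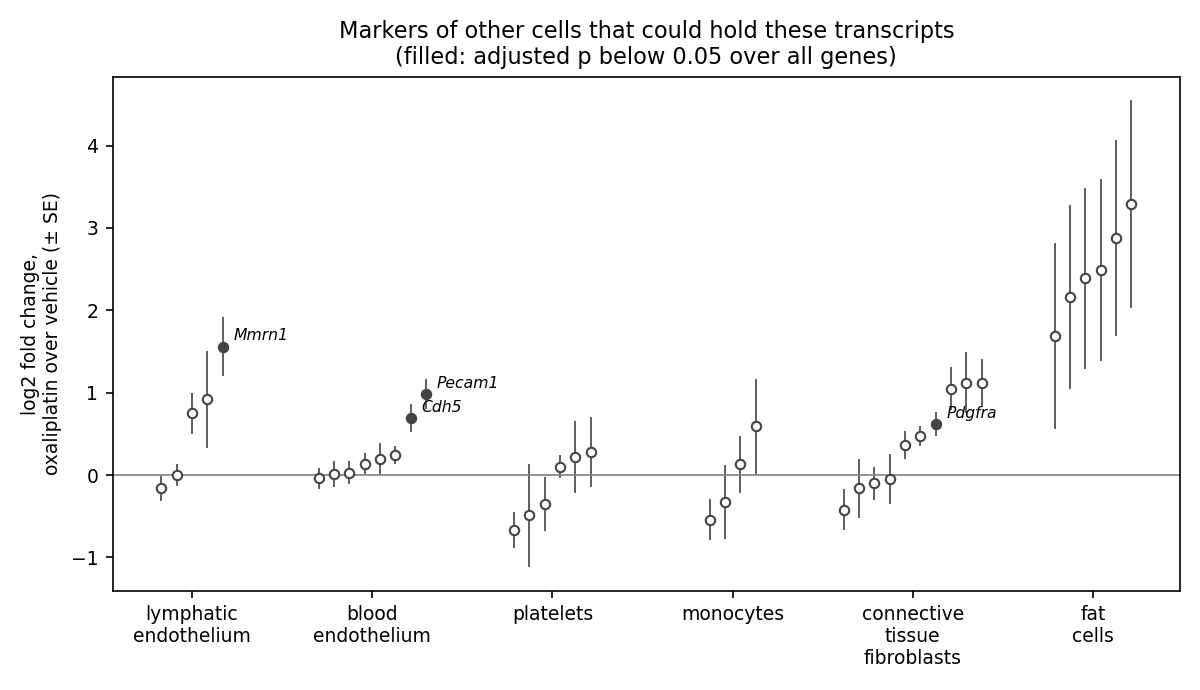
Log2 fold change, oxaliplatin over vehicle, with SE (y axis) of the tested markers of 6 other cell types, 1 point a gene; filled points passed an adjusted p of 0.05 over all genes and are named. Mmrn1, Pecam1, Cdh5 and Pdgfra are the markers shown that passed, and the platelet markers lie on both sides of 0.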

How the data were processed

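The 10 samples are total RNA from dorsal root ganglia, assigned to groups by their titles. RNAlater storage and SMARTer libraries are given in the labels' protocols, and strandedness is not stated there. The deposited values are raw read counts per Ensembl gene, whole numbers, with 1 column per sample. The submitters' processing notes name STAR 2.5.1a, Partek and DESeq2 for the authors' processing without a role for each. Genome build, annotation and counting step: not given in the sources used here. Of 40757 rows, 276 repeats of 167 IDs with identical counts were dropped, and 26 symbols turned into dates were looked up by ID. Libraries of 1 group differed by more than sampling noise in every pair (chi-square over its degrees of freedom at least 12.7).

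Genes kept by filterByExpr (18401) were tested with edgeR 4.0.16 in R 4.3.3 (TMM factors, robust quasi-likelihood fit without covariates, Benjamini-Hochberg adjustment over all tested genes, threshold 0.05). SE is the log2 fold change over the square root of F. CPM uses TMM-scaled library sizes; log2 CPM has a prior count of 2. The fit was tested on simulated data. The alternatives were DESeq2 1.42.0, limma 3.58.1 (voom with quality weights), other size factors and filters, the replicate number as a block, and fits without 1 library each or without a pair of libraries that had stood apart in earlier results (oxaliplatin replicate 1, vehicle replicate 5). The members and the other gene lists were chosen with earlier results of these data known. The genes named are the 9 members, the members of each other list that passed (up to 4 of smallest p) or else the 2 of highest count, and the 6 genes of most similar within-group variation (mean of at least 2 CPM). Csf1r, Aif1, Cd44, Slc19a1, Hp, Csf1, Flt4, Prox1, Ccl21a, Pdpn, Reln, Ppbp, Cx3cr1, Clec10a, Cd209f, Mgl2, Dcn, Dpt, Pi16 and Clec3b were also named after their values were seen. So were Col1a1, Col1a2, Col3a1, Lum, Kdr, Tek, Flt1, Cldn5, Emcn, Tie1, Ciita, H2-DMa, H2-DMb1, Tubb3, Avil, Prph, Lyz2, C1qb and Spi1.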

Additional observations from a re-analysis of the deposited data

Results flagged for a closer look

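Pf4 in oxaliplatin replicate 5, at 12.5 CPM, stood apart from the other 4 oxaliplatin libraries (9.25 to 9.98 CPM): its gap to the nearest of them was 0.776 of the group's whole range, above Dixon's critical value of 0.71 for 5 samples. Of 18 groups checked, 9 genes in 2 groups, this was the 1 that met the limit, and chance flags about 1 in 20. Without that library the log2 fold change of Pf4 was 0.60 (edgeR adjusted p = 0.138).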

How the results depend on the processing

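All 8 tested members kept a fold change above 0 under every alternative run, with 1 exception, Cd163, which ran from -0.01 (without oxaliplatin replicate 5) to 0.30 when 1 library was left out. The count of members called higher, 3 as reported, was 5 with limma voom and 0 to 5 when 1 library was left out; 0 were called lower under every alternative. Over all genes, 234 were higher and 142 lower as reported, 516 and 406 with DESeq2, 439 and 365 with limma voom, and 142 and 76 in the fit that left out oxaliplatin replicate 1 together with vehicle replicate 5. Leaving out 1 library gave 79 to 343 higher and 34 to 251 lower. Without a composition factor 303 were higher and 99 lower, and 4 members were higher. With the replicate number as a block 382 were higher and 278 lower, and 4 members were higher, Lyve1 among them (edgeR adjusted p = 0.0226); with it Csf1r (0.0496) and Aif1 (0.00563) were lower. Libraries of the same number deviated together in some pairs only (r of -0.038 to 0.212 over tested genes). Of the 5 oxaliplatin libraries, 3 correlated best with the vehicle library of their own number. Whether the numbers mark a pairing or a shared batch was not tested, and the main fit has no block.

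Among the other genes named for which the alternatives were followed, the sign changed for Ly6c2 (-0.03 without oxaliplatin replicate 3 or vehicle replicate 1 or 2, up to 0.54 without the pair of libraries), Ppbp (0.31 with limma voom), Itga2b (-0.02 without oxaliplatin replicate 2, up to 0.16 without vehicle replicate 4), Scgb1a1 (0 without vehicle replicate 4, down to -0.26 without oxaliplatin replicate 2) and Car3 (-0.03 with the replicate block, -0.78 without oxaliplatin replicate 1, 1.99 without oxaliplatin replicate 2, -0.95 without the pair of libraries). The cause was not tested. With the filter of 1 CPM in 5 libraries Folr2 was not tested. Low counts limit Timd4, at 0 to 14 counts per library, and to a lesser degree Folr2.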
